A study of Homo sapiens with 6 samples.

Results

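The genes described are 9 that encode chains of collagen IV and laminin, the main structural proteins of basement membranes: COL4A1, COL4A2, COL4A5, COL4A6, LAMA3, LAMA5, LAMB1, LAMB3 and LAMC1. They were taken by symbol from the 20026 gene rows with a unique identifier, and all 9 were found. The names were chosen with the expression values of these libraries known, so their levels and differences are given as a description, without p-values. RNA was measured in HCT116, an established human colon carcinoma cell line, as 3 stable lines with 2 libraries each. One line is labelled control, one over-expresses wild type TEAD4 and one over-expresses the TEAD4 mutant K178R. TEAD4 is a DNA-binding factor through which the Hippo pathway coactivators act. The control libraries carry PQ in their titles, which the labels do not explain, and the labels name no promoter for the transgenes and no number of clones, and whether the 2 libraries of each line are separate cultures is not stated. For wild type replicate 2 the genotype field names TEAD5, and the library was grouped by its title, which names wild type TEAD4.

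Basement membranes are thin sheets of matrix under epithelia and around vessels, muscle and nerve. Laminins are cross-shaped trimers of an alpha, a beta and a gamma chain that bind cell surface receptors and polymerise first. Collagen IV chains form triple helices inside the cell, which join after secretion into a covalent network beneath the cell. The chains COL4A1 and COL4A2 make the trimer found in nearly all basement membranes, while COL4A5 combines with COL4A6 in some epithelia, or with COL4A3 and COL4A4, as in the kidney glomerulus. LAMA5, LAMB1 and LAMC1 form a trimer of many epithelia. LAMA3 and LAMB3 belong to the laminin that anchors epithelial cells through hemidesmosomes.

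The collagen IV genes lie in head-to-head pairs whose starts share one stretch of DNA, and the promoter sequences are shown because COL4A5 and COL4A6 differed in the same direction between the lines while COL4A1 and COL4A2 both stood near 0. COL4A1 (chromosome 13, 110148963 to 110307233, minus strand) and COL4A2 (chromosome 13, 110305812 to 110513209, plus strand) form one pair. COL4A6 (chromosome X, 108155607 to 108439497, minus strand) and COL4A5 (chromosome X, 108439844 to 108697545, plus strand) form the other. Gene coordinates are those of GENCODE release 29 on GRCh38, not of the build named in the submitters' notes. The sequences below come from RefSeq on GRCh38.p14, reach from 250 bases before to 50 after a start, run 5′ to 3′ on the gene's own strand, and have CCAAT or its reverse complement ATTGG in capitals. COL4A5 is at chrX:108439588-108439887 on the plus strand, COL4A6 (the more upstream of its 2 listed starts) at chrX:108439409-108439708 on the minus strand, and COL4A1 at chr13:110307108-110307407 on the minus strand.
COL4A5: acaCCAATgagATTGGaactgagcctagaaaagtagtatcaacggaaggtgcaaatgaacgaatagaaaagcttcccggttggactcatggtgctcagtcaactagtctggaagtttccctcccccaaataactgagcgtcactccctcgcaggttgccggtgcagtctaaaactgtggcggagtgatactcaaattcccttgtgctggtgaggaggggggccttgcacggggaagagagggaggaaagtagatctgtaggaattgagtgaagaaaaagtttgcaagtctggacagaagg
COL4A6: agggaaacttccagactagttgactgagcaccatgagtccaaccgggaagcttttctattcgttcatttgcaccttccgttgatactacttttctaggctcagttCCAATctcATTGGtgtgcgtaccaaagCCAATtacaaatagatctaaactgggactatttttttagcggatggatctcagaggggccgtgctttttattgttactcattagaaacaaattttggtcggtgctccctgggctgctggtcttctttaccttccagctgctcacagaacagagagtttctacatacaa
COL4A1: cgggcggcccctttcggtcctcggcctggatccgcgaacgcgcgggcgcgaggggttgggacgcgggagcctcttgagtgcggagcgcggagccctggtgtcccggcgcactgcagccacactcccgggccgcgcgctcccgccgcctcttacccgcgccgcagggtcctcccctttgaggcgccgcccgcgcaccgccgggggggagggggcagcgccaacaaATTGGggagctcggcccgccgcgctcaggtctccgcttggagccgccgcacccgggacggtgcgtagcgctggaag

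The more upstream start of COL4A6 and that of COL4A5 lay 380 bases apart and their windows shared 121 bases. The other listed COL4A6 start lay 1416 bases from that of COL4A5, with 0 bases shared and 0 CCAAT matches in its window. The starts of COL4A1 and COL4A2 lay 127 bases apart, with 226 bases shared, so the COL4A2 window is mostly the reverse complement of the one printed. The printed COL4A6 window held 3 CCAAT matches and the COL4A5 window 2, which are the same DNA as 2 of the 3. The windows of COL4A1 and COL4A2 held 1 each, also the same DNA. Of all 35116 promoter windows in the RefSeq table, 34.6% held CCAAT on either strand and 3.26% held 3 or more. The printed COL4A5 and COL4A6 windows had 49.3% and 43.7% G and C, against 76.7% for COL4A1.

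**Figure D1:**
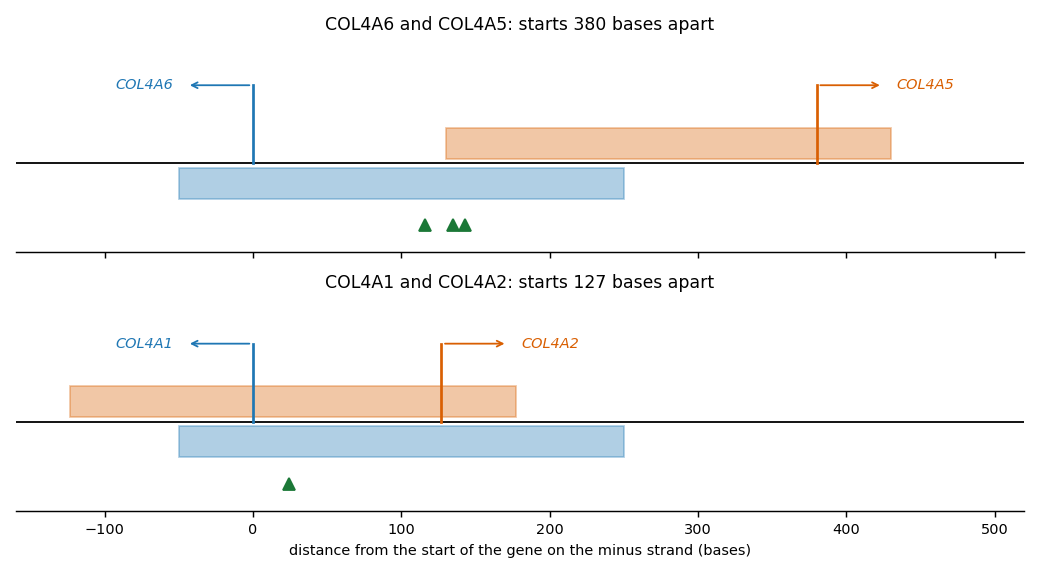
Start regions of the 2 collagen IV gene pairs, with distance in bases from the start of the gene on the minus strand on the horizontal axis. Arrows mark starts and transcription direction, coloured bars the 300-base windows and triangles CCAAT matches on either strand. The more upstream start of COL4A6 and the start of COL4A5 are 380 bases apart with 3 matches between them, and those of COL4A1 and COL4A2 are 127 bases apart with 1.

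All 9 genes matched the RefSeq table, with 12 windows in all. The letters GGAATG, a core bound by TEAD factors, or the reverse complement CATTCC were in 0 of the 12 windows, and in 14% of all windows. This says only that these letters are not in these windows. TGACTCA, a site of AP-1 factors, or TGAGTCA was in 2 of the 12 and in 4.95% of all windows. LAMA3 had 2 such matches, a count reached by 0.222% of all windows, and the most downstream of the 3 LAMB3 starts had 1. The only LAMA3 start in the table, at position 23873020 of chromosome 18, lies inside the gene's full span (23689443 to 23956222, plus strand). GGGCGG or CCGCCC was in 10 of the 12 windows and in 45% of all, with 5 matches at LAMA5 and none in the COL4A5 window. These 12 windows are not all separate DNA. Windows 1 and 2 of LAMB3, counted from the most upstream start, overlap and hold the same CCGCCC. A COL4A1 match is the same DNA as the COL4A2 match. Matches of these motifs did not overlap one another in the windows printed.

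TEAD4, the gene over-expressed, stood at 17.1 ± 0.666 FPKM in control (mean ± SD, n = 2, as throughout), 85.4 ± 1.37 with wild type TEAD4 and 71.8 ± 0.745 with K178R (limma adjusted p = 2.1e-07 for each line against control). FPKM is a fragment count scaled by transcript length and by library size, so levels of different genes can be set side by side per length. The lengths used are not given, so such levels are approximate. Relative depth, from the value of 1 read among the lowest genes, lay between 0.927 and 1.05 of that in control replicate 1. Read numbers themselves are unknown. Of 8 epithelial and intestinal markers 5 reached 0.5 FPKM in 2 libraries (EPCAM, CDH1, KRT8, KRT18 and CDX2), while CDX1 was listed at 0 and VIL1 and LGR5 stayed under 0.1 FPKM. The sum of this list was 2137 to 2174 FPKM in control, 1370 to 1407 in wild type and 2433 to 2443 in K178R. Most of it was KRT8 (means 1298, 770 and 1381 FPKM in that order) and KRT18 (691, 457 and 890). The other markers did not follow the sum: EPCAM stood at 152, 147 and 152 FPKM, CDH1 at 11.4, 10.6 and 13.1. CDX2 stood at 3.29, 4.15 and 3.21. Of 7 fibroblast markers 6 stayed under 0.1 FPKM in every library, with COL1A2, DCN and LUM listed at 0. The summed fibroblast level was 1.53 to 1.76 FPKM in control, 3.64 to 3.78 in wild type and 1.73 to 1.88 in K178R, nearly all of it COL1A1; the part of these markers in the results was not tested. All 4 endothelial markers stayed under 0.1 FPKM. In bulk RNA, fewer cells of a kind and less RNA per cell cannot be told apart.

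On the log2(FPKM + 1) scale COL4A5 and COL4A6 had the largest differences among the 7 genes that passed the filter described below, and mean FPKM was several-fold higher in both TEAD4 lines than in control and at like levels in the 2 TEAD4 lines. COL4A5, a chain of the X-linked collagen IV pair known for its role in Alport syndrome, read 1.64 and 1.63 FPKM in the control libraries. It read 7.07 and 6.98 FPKM with wild type TEAD4, and 6.87 and 7.03 with K178R. The TEAD4 libraries thus lie well above the control libraries and overlap each other. Mean FPKM was 4.30 times that of control for wild type TEAD4 and 4.25 times for K178R. On the log2(FPKM + 1) scale, which is used for every difference below and understates the change of low genes, COL4A5 was higher by 1.61 (SE 0.05) and 1.59 (SE 0.05). Between the TEAD4 lines it differed by -0.01 (SE 0.05), K178R minus wild type.

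COL4A6, the chain encoded on the other side of the same start region, read 0.291 and 0.229 FPKM in control. It read 1.52 and 1.37 FPKM with wild type TEAD4, and 1.35 and 1.31 with K178R. All 4 TEAD4 libraries lie above both controls, and the wild type libraries lie above the K178R ones by less than the spread of the wild type libraries. Mean FPKM was 5.57 and 5.12 times that of control, and the fitted differences were 0.96 (SE 0.07) and 0.89 (SE 0.07). COL4A6 reached the filter used for testing, 0.5 FPKM in at least 2 libraries, through the TEAD4 lines alone. The level of COL4A5 over that of COL4A6 was 6.39 ± 1.08 in control, 4.87 ± 0.318 with wild type TEAD4 and 5.22 ± 0.187 with K178R, ranges that overlap for the 2 TEAD4 lines. The mean log2 ratios were 2.665, 2.283 and 2.384. With 0.1 FPKM added to both levels they were 2.276, 2.207 and 2.300, so the higher control ratio did not hold.

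COL4A1 and COL4A2, the chains of the common collagen IV trimer, were almost not detected in any line. COL4A1 read 0.00295 and 0.00562 FPKM in control, 0.0317 and 0.0163 with wild type TEAD4, and 0.0118 and 0.0213 with K178R. COL4A2 read 0.0136 and 0.0130 FPKM in control, 0.0226 and 0.0155 with wild type TEAD4, and 0.00685 and 0.0141 with K178R. Divided by the relative value of 1 read, the COL4A1 values stood within 0.152 of the whole multiples 1 and 2 (control), 10 and 5 (wild type) and 4 and 7 (K178R) of the smallest value. The COL4A2 values stood within 0.118 of 2 and 2, 3 and 2, and 1 and 2 times the smallest. If the smallest value is 1 read, these levels rest on at most 10 reads a library, so no fold is given. Neither gene passed the filter, so differences between the lines were not tested.

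COL4A5 made up 70.0% ± 1.89 of the summed FPKM of the 6 collagen IV genes in control, 75.5% ± 0.775 with wild type TEAD4 and 78.7% ± 0.734 with K178R. The sum itself went from 2.34 ± 0.0663 FPKM in control to 9.31 ± 0.184 and 8.83 ± 0.0589. COL4A3 and COL4A4, the partners of COL4A5 in the kidney glomerulus and not among the 9 genes, were also low. In control COL4A4 made up 12.6% ± 0.083 of the sum and COL4A6 11.1% ± 1.58. With wild type TEAD4 these shares were 6.19% and 15.5%, and with K178R 4.46% and 15.1%. COL4A4 read 0.295 ± 0.0103 FPKM in control, 0.576 ± 0.0166 with wild type TEAD4 and 0.394 ± 0.0564 with K178R. It reached the filter only through the wild type libraries, where it is highest, so its values are given without a test. COL4A3 stayed under the filter, at 0.131, 0.214 and 0.129 FPKM. In each line COL4A5 was the highest collagen IV gene.

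**Figure D2:**
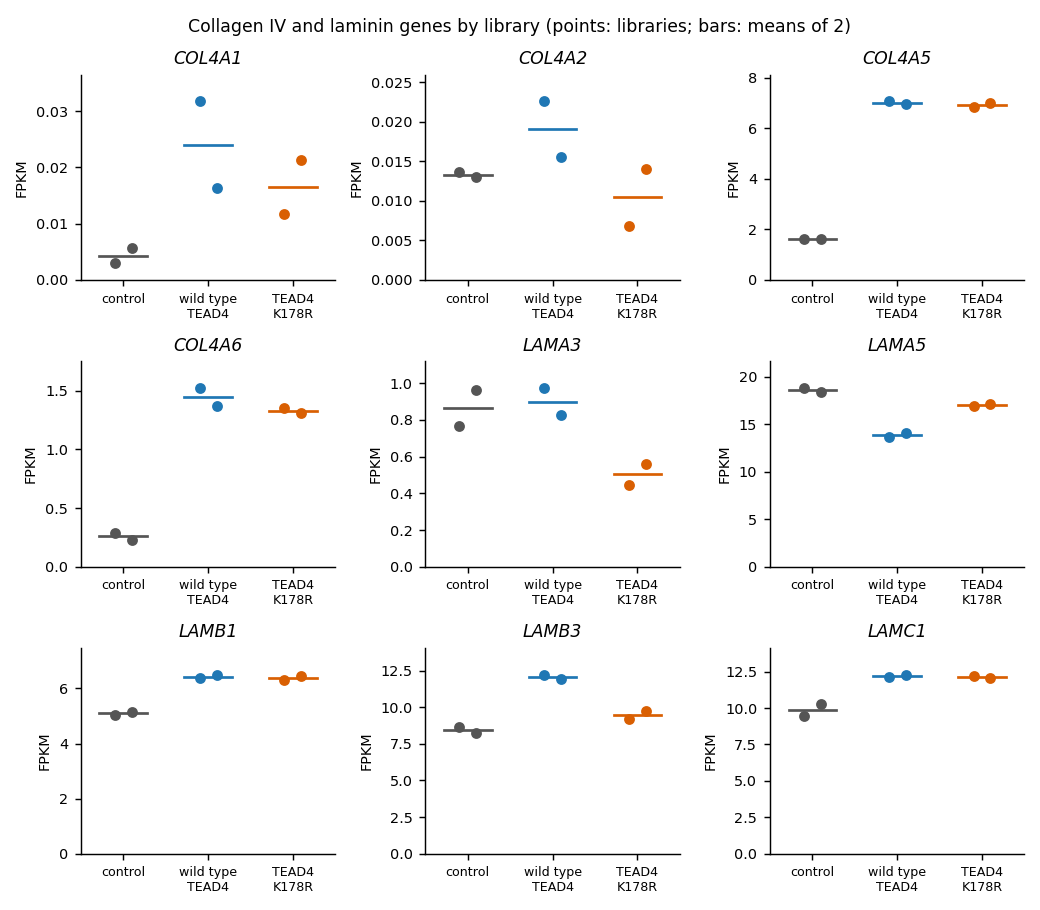
FPKM of the 9 genes in each library, on axes that start at 0 and differ between panels. Points are libraries and bars the means of 2. COL4A5 sits near 1.6 in control and near 7 in both TEAD4 lines, LAMA5 is lowest with wild type TEAD4, LAMA3 lowest with K178R, and COL4A1 and COL4A2 stay under 0.04 throughout.

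The laminin genes moved less, and not in one direction. LAMA5 (chromosome 20, 62307955 to 62367312, minus strand), the alpha chain of the trimer with LAMB1 and LAMC1, was the highest of the 9 genes in every line. It read 18.8 and 18.4 FPKM in control, 13.6 and 14.1 with wild type TEAD4, and 16.9 and 17.1 with K178R. The 3 lines do not overlap: the wild type libraries are lowest and the K178R libraries lie between. LAMA5 was lower by 0.40 (SE 0.04) with wild type TEAD4 than in control and by 0.12 (SE 0.04) with K178R. It was higher by 0.28 (SE 0.04) in K178R than in wild type TEAD4.

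LAMB1 (chromosome 7, 107923799 to 108003255, minus strand), the beta chain of that trimer, read 5.05 and 5.14 FPKM in control, 6.38 and 6.49 with wild type TEAD4, and 6.31 and 6.46 with K178R. LAMC1 (chromosome 1, 183023460 to 183145592, plus strand), its gamma chain and that of most other laminins, read 9.46 and 10.2 FPKM in control, 12.1 and 12.3 with wild type TEAD4, and 12.2 and 12.1 with K178R. For both genes all 4 TEAD4 libraries lie above both controls, and the TEAD4 lines overlap. LAMB1 was higher than control by 0.29 (SE 0.04) and 0.28 (SE 0.04), and LAMC1 by 0.28 (SE 0.05) in either line. In the wild type line the median of all genes tested was itself 0.093 above control. Relative to that median LAMB1 was 0.19 and LAMC1 was 0.19 higher, LAMB3 0.38 higher, COL4A5 1.51 and COL4A6 0.86 higher, and LAMA5 differed by -0.49. After median-of-ratios scaling, which moves the median of all genes to -0.009, LAMB1 was 0.18 and LAMC1 0.17 higher than control, so their differences moved by over 1.5 times.

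The proportions of the chains of this trimer differed between the lines. LAMC1 stood at 1.93 ± 0.0836 times LAMB1 in control, 1.89 ± 0.00514 with wild type TEAD4 and 1.90 ± 0.0493 with K178R, ranges that overlap. LAMA5 stood at 3.66 ± 0.101 times LAMB1 in control, 2.16 ± 0.0293 with wild type TEAD4 and 2.66 ± 0.0214 with K178R. These ranges do not overlap. Such ratios within a library do not depend on scaling, but a ratio shows unequal change and not which chain moved.

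LAMB3 and LAMA3 belong to the laminin of hemidesmosomes, the junctions that tie epithelial keratin filaments to the basement membrane. LAMB3 (chromosome 1, 209614870 to 209652466, minus strand), its beta chain, read 8.64 and 8.21 FPKM in control, 12.2 and 11.9 with wild type TEAD4, and 9.22 and 9.74 with K178R. The wild type libraries are the highest, and the K178R libraries lie above control without overlap. LAMB3 was higher than control by 0.47 (SE 0.05) with wild type TEAD4 and by 0.15 (SE 0.05) with K178R. It differed by -0.32 (SE 0.05) between K178R and wild type TEAD4.

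LAMA3, the alpha chain, was low: 0.764 and 0.964 FPKM in control, 0.972 and 0.824 with wild type TEAD4, and 0.446 and 0.560 with K178R. The control and wild type libraries overlap, and both K178R libraries lie below them. The ratio of mean FPKM of K178R was 0.582 to control and 0.560 to wild type TEAD4. On the log2(FPKM + 1) scale LAMA3 differed by -0.31 (SE 0.08) and -0.34 (SE 0.08), and by 0.03 (SE 0.08) between wild type TEAD4 and control.

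The beta chain stood far above the alpha chain in each line by FPKM. The transcript lengths used are not given, and the only LAMA3 start in the RefSeq table lies inside the gene's span. The size of this ratio therefore depends on the transcript form assumed. LAMB3 was 9.91 ± 1.97 times LAMA3 in control, 13.5 ± 1.35 times in the line with wild type TEAD4 and 19.03 ± 2.30 times in the K178R line. The ratios of the 3 lines did not overlap, from 8.51 and 11.3 in control to 12.5 and 14.5 and to 20.7 and 17.4. LAMC3, a less common gamma chain that is not among the 9 genes, stood at 2.004 ± 0.250 FPKM in control, 3.23 ± 0.0149 with wild type TEAD4 and 2.40 ± 0.00829 with K178R.

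**Figure D3:**
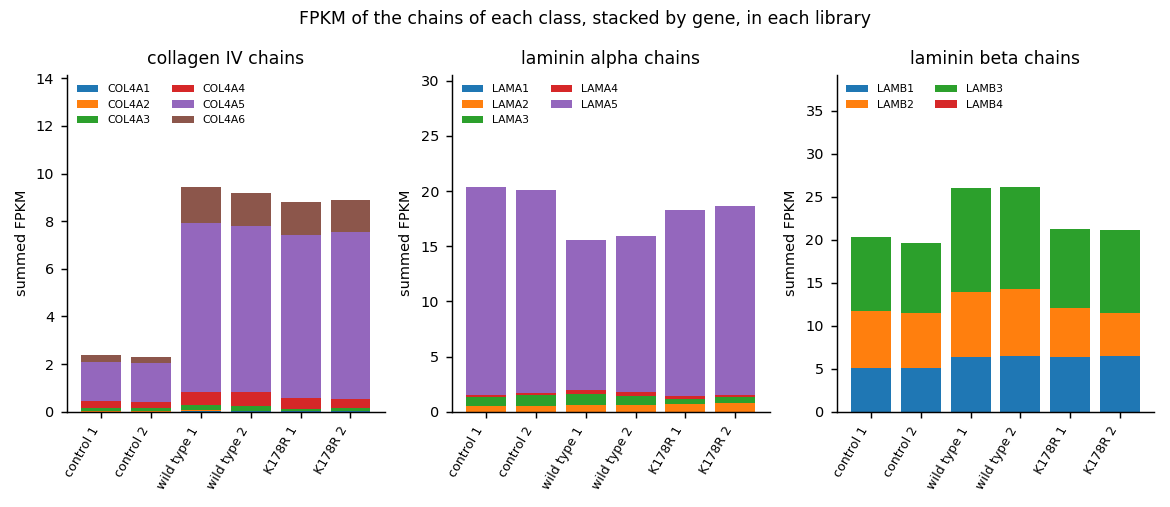
Summed FPKM of collagen IV, laminin alpha and laminin beta chains in each library, stacked by gene. COL4A5 fills most of the collagen IV bars and LAMA5 88.1% to 92.0% of the mean alpha level in each line, and the beta sum is highest with wild type TEAD4 (26.1 FPKM against 20.01 in control).

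Of the 9 genes, 7 passed the filter. For these, limma called 5 higher and 1 lower with wild type TEAD4 than in control, where 37.6% of all 11445 genes tested were called higher and 12.2% lower. With K178R it called 5 higher and 2 lower than in control, where 11.7% of all genes were higher and 11.1% lower. For K178R against wild type TEAD4 it called 1 higher (LAMA5) and 2 lower (LAMA3 and LAMB3), where 10.4% of all genes were higher and 34.5% lower. Nothing is read from these counts, since the names were chosen with the differences known. The median difference of the 7 genes was 0.287, 0.278 and -0.015 in these comparisons, beside 0.093, 0.002 and -0.084 over all genes. The 2 lower genes with K178R, LAMA5 and LAMA3, became 0 without control replicate 1, control replicate 2, K178R replicate 1 or K178R replicate 2, and also with no filter and with the control libraries averaged. They became 1 with the replicate block and without trend. With a filter of 1 FPKM they also became 1. LAMA3 was under 1 FPKM in every library, so that filter leaves it untested in every comparison. Between the TEAD4 lines the 2 lower calls (LAMA3 and LAMB3) did not both hold without wild type TEAD4 replicate 1 or K178R replicate 1. There LAMA3 differed by -0.28 without wild type TEAD4 replicate 1. The comparisons with control share the 2 control libraries, so their values are set side by side and not compared further. In the wild type line the split of all calls depended on scaling, with 75.5% of them higher as deposited and 47% after median-of-ratios scaling. For K178R against wild type TEAD4 it was 23.1% and 53.6%.

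In each line the order of the levels was LAMA5, then LAMC1 and LAMB3, LAMB1, COL4A5, COL4A6 or LAMA3, and last COL4A1 and COL4A2, with COL4A5 above LAMB1 in the TEAD4 lines. With wild type TEAD4, LAMC1 (12.2 ± 0.109 FPKM) and LAMB3 (12.04 ± 0.206 FPKM) overlapped. LAMA3 stood above COL4A6 in control (0.864 ± 0.141 against 0.260 ± 0.0442 FPKM) and below it in both TEAD4 lines.

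**Figure D4:**
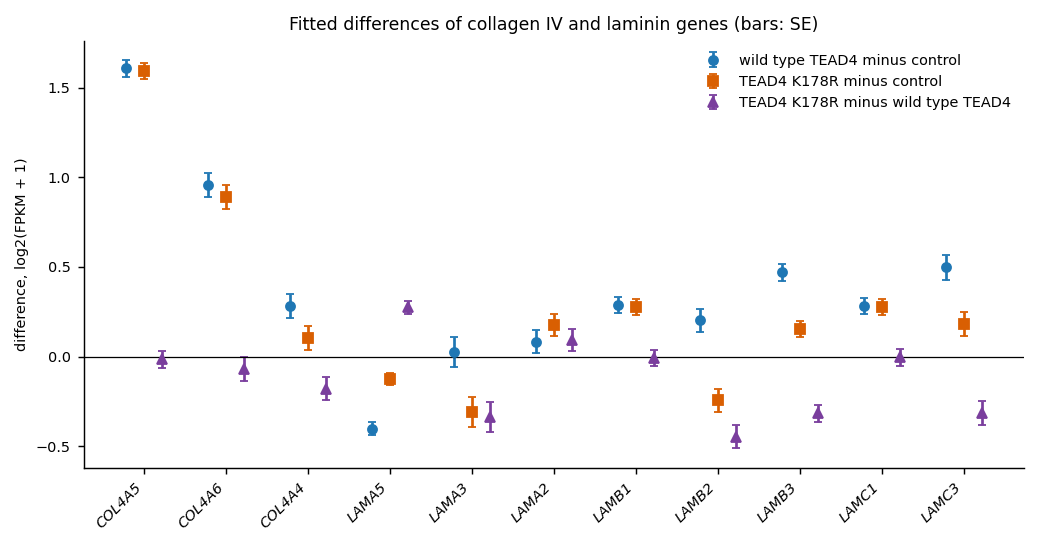
Fitted differences on the log2(FPKM + 1) scale, with SE bars, of 11 collagen IV and laminin genes that passed the filter, for the 3 comparisons. COL4A5 and COL4A6 stand apart at 1.61 and 0.96 with wild type TEAD4, LAMA5 lies below 0 against control in both TEAD4 lines, and LAMB2 lies above 0 with wild type TEAD4 (a call that ends after median-of-ratios scaling) and below 0 with K178R.

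A further 8 genes of the collagen IV and laminin families were examined, and 4 of them passed the filter. With wild type TEAD4 3 were called higher (COL4A4, LAMB2 and LAMC3) and 0 lower by limma, beside 37.6% and 12.2% of all genes. COL4A4 passed the filter only through the wild type libraries, where it is highest, so its call carries no weight in these counts. Of the 4 genes 3 had an unadjusted p under 0.05, and 0 were lower without trend. The 3 higher became 2 after median-of-ratios scaling. The count also fell without either control library or either wild type library. Without either wild type library COL4A4 fails the filter and is not tested, so part of that fall comes from the filter. With K178R 0 were higher and 1 lower (LAMB2) by limma, beside 11.7% and 11.1% of all genes, with 3 of the 4 at an unadjusted p under 0.05. Limma without trend called 1 higher. For K178R against wild type TEAD4 0 were higher and 2 lower (LAMB2 and LAMC3), beside 10.4% and 34.5% of all genes. Here 3 of the 4 had an unadjusted p under 0.05, and 0 were higher without trend. LAMC3 rose with wild type TEAD4 (log2 0.50, SE 0.07, limma adjusted p = 9.9e-04) and stood lower with K178R than with the wild type factor (log2 -0.31, SE 0.07, limma adjusted p = 0.00833). LAMB2, a beta chain of vessel, muscle and kidney laminins, read 6.68 and 6.31 FPKM in control, 7.50 and 7.77 with wild type TEAD4, and 5.72 and 4.98 with K178R. Between the TEAD4 lines it was the K178R line that was lower (log2 -0.45, SE 0.06, limma adjusted p = 0.00164). Its calls against control (limma adjusted p = 0.0326 with wild type TEAD4 and 0.0341 with K178R) ended without control replicate 1 (limma adjusted p = 0.0610 and 0.164). They also ended without control replicate 2 (limma adjusted p = 0.154 and 0.0793), without either wild type library (limma adjusted p = 0.0696 and 0.125) and without K178R replicate 2 (limma adjusted p = 0.147). After median-of-ratios scaling the wild type call ended too (limma adjusted p = 0.250). LAMA2, an alpha chain of muscle and nerve, passed in none of the 3 comparisons (0.538, 0.630 and 0.739 FPKM). LAMB4 was listed at 0 in every library, LAMA1 was at or under 0.014 FPKM, and LAMA4 stood at 0.214, 0.339 and 0.244 FPKM.

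Genes that work with these chains were followed in 4 further lists, written with earlier results of these data known. Of 21 other basement membrane components 11 were tested, with 4 higher and 6 lower with wild type TEAD4 (beside 37.6% and 12.2% of all genes), and 3 higher and 5 lower with K178R (beside 11.7% and 11.1%). The genes tested include NTN4 and COL17A1, which passed the filter only through the lines where they are higher. Their calls carry no weight in these counts, and they also enter the median of this list. The count of 5 lower fell without control replicate 1, control replicate 2 or K178R replicate 1. Without either control library COL17A1 fails the filter and is not tested, so part of that fall comes from the filter. The median difference of the 11 genes from control was -0.199 and -0.100, beside 0.093 and 0.002 over all genes. TINAGL1, a matrix glycoprotein, stood at 11.3 ± 0.0453 FPKM in control and fell to 6.04 ± 0.219 in the wild type line (log2 -0.81, SE 0.04, limma adjusted p = 2.2e-05) and to 6.03 ± 0.0545 in the K178R line (log2 -0.81, SE 0.04, limma adjusted p = 2.6e-05). FRAS1, a protein of the membrane under skin and kidney epithelia, fell from 3.30 ± 0.122 FPKM to 1.57 ± 0.0605 and 1.62 ± 0.0111. COL17A1, the transmembrane collagen of hemidesmosomes, stood at 0.740 ± 0.0850 FPKM in control and at 0.236 ± 0.00391 and 0.0162 ± 0.0117 in these lines. It passed the filter only through the control libraries, so no test is given. Fibronectin, FN1, rose from 1.47 ± 0.0124 FPKM to 2.17 ± 0.116 and 3.29 ± 0.0583, and was higher in K178R than in wild type (log2 0.44, SE 0.06, limma adjusted p = 0.00103). NTN4, a netrin that binds laminin, stood at 0.347 ± 0.104 FPKM in control, 1.14 ± 0.0297 with wild type TEAD4 and 0.556 ± 0.0572 with K178R. It passed the filter only through the TEAD4 lines, where it is higher, so no test is given. COL18A1, the basement membrane collagen that yields endostatin, was higher in K178R than in wild type TEAD4 (log2 0.25, SE 0.05, limma adjusted p = 0.0051). NID1 and NID2, the nidogens that link laminin to collagen IV, stayed under 0.04 FPKM in every library.

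Of 18 genes of collagen modification, export and crosslinking 15 were tested, with 5 higher and 3 lower with wild type TEAD4, and 3 and 3 with K178R. In the wild type line these are 33.3% and 20%, beside 37.6% and 12.2% of all genes, and after median-of-ratios scaling the counts were 4 and 6. In the K178R line they are 20% each, beside 11.7% and 11.1% of all genes. PXDN, the peroxidase that forms sulfilimine crosslinks between collagen IV molecules, stood at 2.81 ± 0.0433 FPKM in control and rose to 4.90 ± 0.167 in the wild type line (log2 0.63, SE 0.06, limma adjusted p = 1.6e-04) and to 4.06 ± 0.237 in the K178R line (log2 0.41, SE 0.06, limma adjusted p = 0.00237). PLOD2, a collagen lysyl hydroxylase, rose in both lines (log2 0.46 and 0.48, SE 0.05 each). SEC23A, a coat protein of export from the endoplasmic reticulum, rose in both lines (log2 0.38 and 0.32). CRTAP, a partner of collagen prolyl hydroxylation, rose in the wild type line (log2 0.44, SE 0.04). In K178R the lysyl oxidase LOXL2 (log2 -0.37, SE 0.06, limma adjusted p = 0.00645) and the prolyl hydroxylase subunit P4HA2 (log2 -0.33, SE 0.06, limma adjusted p = 0.00871) fell. The P4HA2 call ended without control replicate 1 (limma adjusted p = 0.0581) or K178R replicate 1 (limma adjusted p = 0.0514).

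Of 16 receptors and linkers 14 were tested, with 8 higher and 3 lower with wild type TEAD4 (beside 37.6% and 12.2% of all genes). With K178R 4 were higher and 3 lower (28.6% and 21.4%, beside 11.7% and 11.1% of all genes). After median-of-ratios scaling the wild type counts were 5 and 5. SDC4, a heparan sulfate proteoglycan of focal adhesions, stood at 38.4 ± 2.11 FPKM in control and rose to 80.6 ± 0.801 in the wild type and 62.7 ± 0.0751 in the K178R line (log2 1.05 and 0.70, SE 0.04 each, limma adjusted p = 3.8e-06 and 3e-05). ITGB4, the integrin beta chain that binds the laminin of LAMA3 and LAMB3, fell from 14.2 ± 0.350 FPKM to 8.70 ± 0.0116 and 5.93 ± 0.331. The K178R level was below that of the wild type line (log2 -0.49, SE 0.05, limma adjusted p = 3.6e-04). PLEC, the plectin that joins ITGB4 to keratin, fell from 62.4 ± 0.315 FPKM to 40.2 ± 0.259 and 48.6 ± 2.24. DST, another hemidesmosome linker, fell with wild type TEAD4 (log2 -0.36, SE 0.05, limma adjusted p = 9.6e-04). ITGA2, the alpha chain of a collagen receptor, fell in K178R (log2 -0.34, SE 0.07, limma adjusted p = 0.0109), a call that ended without control replicate 1 (limma adjusted p = 0.0691).

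Of 15 matrix proteases and inhibitors 9 were tested. With wild type TEAD4 7 were higher and 0 lower (8 of 9 at an unadjusted p under 0.05; 0 lower also without trend), beside 37.6% and 12.2% of all genes. With K178R 4 were higher and 2 lower, beside 11.7% and 11.1%. These became 2 and 1 without control replicate 1 or K178R replicate 1, and 3 and 0 without control replicate 2 or K178R replicate 2. Their median difference was 0.334 and 0.058. TIMP3, a metalloprotease inhibitor bound to matrix, stood at 1.18 ± 0.0215 FPKM in control and rose to 2.26 ± 0.0284 and 2.85 ± 0.0989 in the 2 lines, and TIMP2 rose in both lines (log2 0.53 and 0.59, SE 0.03 each). The membrane-bound metalloprotease MMP14 rose with wild type TEAD4 from 2.62 ± 0.180 to 4.41 ± 0.0349 FPKM, and its K178R level was below that (log2 -0.52, SE 0.06, limma adjusted p = 5.9e-04). PLAU, the urokinase that starts the plasmin cascade, also stood below the wild type level with K178R (log2 -0.55, SE 0.05, limma adjusted p = 2.4e-04). Over all 5 lists 53 of 78 genes were tested, with 27 higher and 12 lower with wild type TEAD4 (50.9% and 22.6%, beside 37.6% and 12.2% of all genes). K178R had 14 and 14 against control (26.4% each, beside 11.7% and 11.1%). Relative to the wild type line it had 8 higher and 22 lower (15.1% and 41.5%, beside 10.4% and 34.5%). These counts include COL4A4, NTN4 and COL17A1, each of which passed the filter only through lines where it is higher. The lower count with K178R fell without control replicate 1 or control replicate 2, where COL17A1 is not tested. The 8 higher genes of the last comparison became 17 after median-of-ratios scaling.

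**Figure D5:**
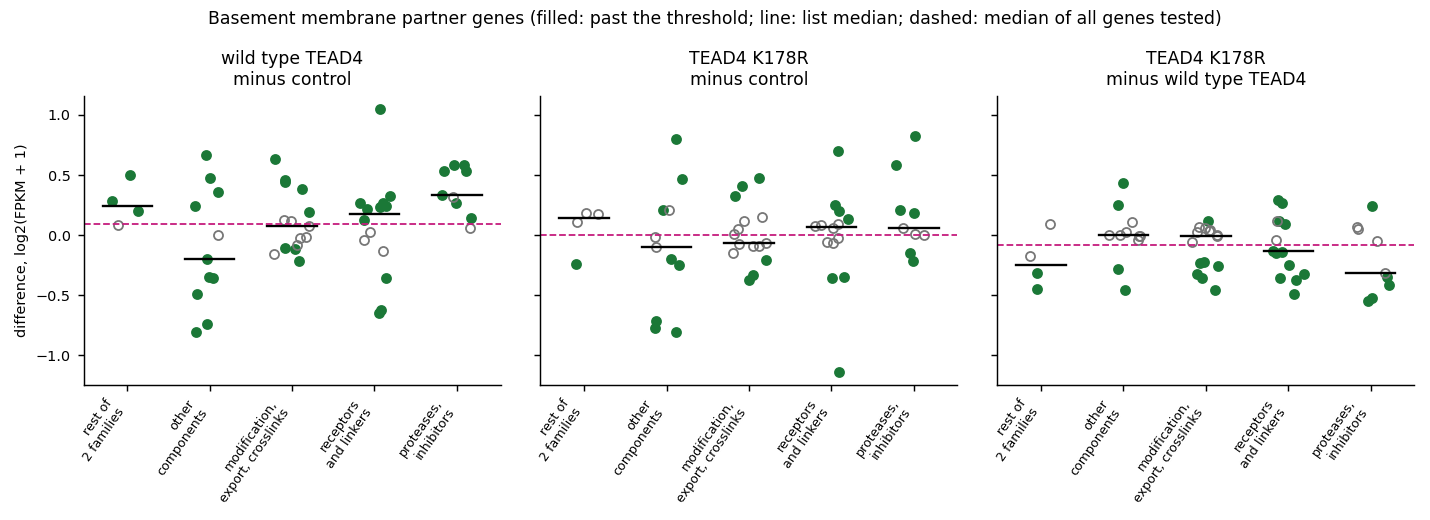
Fitted differences on the log2(FPKM + 1) scale of the tested genes of the 5 partner lists in the 3 comparisons. Each point is a gene, filled where it passed an adjusted p of 0.05, short lines are list medians and the dashed line is the median of all genes tested. In the panel of wild type TEAD4 against control the proteases and inhibitors have a median of 0.334 and the other components one of -0.199.

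Neighbouring genes were taken by position alone, up to 3 protein coding genes on each side of each of the 9, and 20 of them were tested. With wild type TEAD4 8 were higher and 2 lower, and with K178R 3 were higher and 2 lower. These are shares of 40% and 10%, and of 15% and 10%, near those of all genes. ATG4A, an autophagy protease whose end lies 936 bases from that of COL4A6, stood at 2.17 FPKM in control and rose to 3.27 in the wild type line (log2 0.43, SE 0.06, limma adjusted p = 0.00107) and to 3.07 in the K178R line (log2 0.36, SE 0.06, limma adjusted p = 0.00571). PSMD10, the next gene, rose with wild type TEAD4 (log2 0.21, SE 0.03, or 0.12 above the median of all genes, limma adjusted p = 0.00129) and was not called with K178R (log2 0.03, limma adjusted p = 0.575). LAMA5 overlaps ADRM1 by 908 bases and LAMB1 overlaps DLD by 7932 bases, each on the opposite strand. Whether reads were counted by strand is not given in the sources used here, so reads of these overlaps cannot be told apart. ADRM1 stood at 82.02 FPKM in control, 80.96 with wild type TEAD4 and 74.98 under K178R, with no call for wild type TEAD4 (log2 -0.02, limma adjusted p = 0.562) except after scaling (median-of-ratios: -0.14, limma adjusted p = 0.00352). Its lower level with K178R (log2 -0.13, limma adjusted p = 0.0105) lost the call without any single library of the control line (limma adjusted p = 0.0533 and 0.0625). DLD stood at 36.5, 41.2 and 38.9 FPKM and was called higher with wild type TEAD4 as deposited (log2 0.17, SE 0.03, limma adjusted p = 0.00312) but not after median-of-ratios scaling (log2 0.050, limma adjusted p = 0.224).

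The genes nearest in pattern were taken for the 3 members with the widest range of line means, by Euclidean distance between centred log2(FPKM + 1) values over the 6 libraries among all genes tested. Nearest to COL4A5 were TMEM200A, a membrane protein gene (distance 0.209), HOXB8, a homeobox factor (0.229), and GLRX, a glutaredoxin (0.249). TMEM200A stood at 4.45 FPKM in control, 14.1 with wild type TEAD4 and 16.2 under K178R. Nearest to COL4A6 were the adhesion receptor ICAM1 (0.132), TNFAIP1 (0.153) and NLRC5, an activator of MHC class I genes (0.163). ICAM1 stood at 3.10, 6.91 and 6.50 FPKM in these lines. Nearest to LAMB3 were the peroxiredoxin PRDX5 (0.057), the glycosyltransferase MGAT4A (0.062) and KDELR3, a retrieval receptor of the endoplasmic reticulum (0.066). KDELR3 stood at 11.3, 15.4 and 12.3 FPKM.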

How the data were processed

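The authors deposited 1 table of FPKM values per library, named so per the file headers, with 20030 gene rows. The submitters' processing notes name Bowtie 0.12.2 and the build hg18. Neither the FPKM software nor the gene models and strand setting behind it are given in the sources used. The 4 rows with a repeated identifier were left out. The members and all lists were chosen with earlier results of these data known. The 11445 genes that reached 0.5 FPKM in 2 or more libraries were transformed to log2(FPKM + 1) and fitted over all 6 libraries with limma 3.58.1 with trend in R 4.3.3, with 3 group means and no scaling. Tests were two-sided with Benjamini-Hochberg adjustment over all genes tested and a threshold of 0.05. Groups of 2 libraries share 1 estimate of the spread, and since separate cultures are not stated, p-values reflect library spread alone, possibly technical. Replicates correlated at 0.998 across 11445 genes in each line (genes are not independent), with 0 identical values above 0. Deviations of same-numbered libraries correlated between -0.031 and 0.032, so the numbers were not taken as pairs. Relative depth was the modal ratio to control replicate 1 over nonzero genes below 0.1 FPKM. Some genes are not reported here and were left out of the lists and neighbours after the results were known. Named genes were the 9 members, TEAD4, the tested listed genes of the 2 families, up to 4 called genes with the largest change per other list and comparison, and 3 nearest profiles of 3 members. Neighbours and genes counted in full (NID1, NID2, CDX1 and other markers at or near 0) were added by position or as fixed markers. The code of the fit was run on simulated data with an assumed depth and noise, which checks the code and not the calls made here. Coordinates are from GENCODE 29, promoters from RefSeq.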

Additional observations from a re-analysis of the deposited data

How the results depend on the processing

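Alternatives were another pseudocount (0.1), no filter or a filter of 1 FPKM, median-of-ratios and upper-quartile scaling, a replicate block, limma without trend, only the 2 groups compared, the control libraries averaged as 1 sample, and each library left out; with a library left out, the lone library of its line is assumed to vary like the others. COL4A5, COL4A6, LAMA5, LAMB1, LAMB3 and LAMC1 kept the sign of their difference from control under all 13 settings in each TEAD4 line. COL4A5 ranged from 1.51 to 2.04 with wild type TEAD4 and from 1.58 to 2.02 with K178R, and COL4A6 from 0.90 to 2.11 and from 0.85 to 2, highest with pseudocount 0.1. LAMA3 kept its sign under all 12 settings with K178R (-0.68 to -0.23), and under 8 of 12 with wild type TEAD4. Between the TEAD4 lines the small differences of COL4A5, LAMB1 and LAMC1 changed sign with scaling (0.08, 0.09 and 0.10 after median-of-ratios scaling). Genes called with K178R against control numbered 2610, and 1369 to 1533 with 1 library left out; the partner genes called lower numbered 14, and 7 to 11 likewise. With the control libraries averaged these were 1228 and 6. Partner genes higher in K178R than in wild type TEAD4 numbered 8, and 17 and 15 after median-of-ratios and upper-quartile scaling. P4HB turned from -0.01 to 0.105 (limma adjusted p = 0.0294) and ADRM1 from -0.11 to 0.002 (limma adjusted p = 0.963) after median-of-ratios scaling, in K178R against wild type TEAD4. The cause of these shifts was not tested. With the replicate block 5512 genes were called with wild type TEAD4, 2364 with K178R and 4966 between the TEAD4 lines. The number of reads is unknown, so counting error of low genes such as COL4A1 and LAMA3 could not be set apart.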
